A study of Mus musculus with 10 samples.

Results

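The interactions described here are pairs of 10 kb bins of one chromosome that lay at least 2 Mb and less than 20 Mb apart and that the authors listed as significant, from exo-Hi-C in mouse embryonic stem cells. They were chosen by distance alone, each pair was taken once, and pairs with an end in 4 regions of mm9 were left out (39 to 46.8 Mb and 7 to 11 Mb of chromosome 7, 18 to 25.5 Mb of chromosome 12 and 3 to 8.5 Mb of chromosome 14). This left 3437 of the 17029 pairs listed over 10 libraries. The 4 regions held 719 of the 4156 listed pairs of that distance, and 38 of these 719 had only 1 end inside.

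Hi-C joins pieces of DNA that lay close together in the fixed nucleus and counts the joined pieces by sequencing, and exo-Hi-C adds an exonuclease step that removes linear DNA after the joining. Contacts become rarer with distance along the chromosome. Most loops and topologically associating domains (TADs, stretches whose parts contact each other more than their neighbours) are shorter than the pairs described here, while contacts over many megabases are known to reflect compartments of active and inactive chromatin and, in embryonic stem cells, contacts among regions bound by Polycomb proteins.

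All libraries came from the mouse line ES-E14TG2a, a male line with a single X chromosome, grown without feeder cells on gelatin with LIF and the inhibitors CHIR99021 and PD0325901. There were 5 genotypes with 2 libraries each: E1-KO, E2-KO and E3-KO, which each lack an enhancer, E1&E3-dKO, which lacks 2 of them, and WT. The labels used here give no position for E1, E2 or E3, so the deletions could not be checked in these data, and they do not say which library received which of the exonuclease combinations LRC and LIC. They also do not say whether the libraries of a genotype came from separate clones or cultures, so the spread behind the p-values is that of these libraries and may be technical. The titles of 4 libraries begin with w326 (both E2-KO libraries, E3-KO replicate 2 and WT replicate 1), unlike the titles of the other 6.

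The files give reads per listed pair but not the reads of a library, so total depth is unknown. In place of depth, each listed pair gave the expected count at which its reads would have the p-value given for it. This count was divided by the factors for bias of the pair's bins, and whether it follows depth was not tested. At 10 Mb this expectation for an average pair of bins was 0.0210 and 0.00974 reads for E1-KO, 0.00111 and 0.00632 for E2-KO, 0.0112 and 0.00549 for E3-KO, 0.00834 and 0.00496 for E1&E3-dKO, and 0.0144 and 0.0146 for WT. E2-KO replicate 1 had the lowest expectation and E1-KO replicate 1 the highest. WT replicate 2 listed its 466 pairs in 932 lines, once from each end, and if its contacts were doubled too, its expectation is too high.

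The number of interactions from 2 to 20 Mb differed more between the 2 libraries of some genotypes than between genotypes. E1-KO had 79 and 64, E2-KO 512 and 134, E3-KO 107 and 228, E1&E3-dKO 107 and 1901, and WT 222 and 83. E1&E3-dKO replicate 2 alone held more than all other libraries together, which held 1536. On the log2 scale the 8 knockout libraries differed from the 2 WT libraries by a mean of 0.49 (exact permutation over 45 choices, two-sided, p = 0.756, adjusted p = 0.907 over 17 tests between genotypes). The difference from WT was -0.93 in E1-KO, 0.95 in E2-KO, 0.20 in E3-KO and 1.73 in E1&E3-dKO, with adjusted p between 0.819 and 0.960 in an exact permutation over 1260 choices. Without E1&E3-dKO replicate 2 the double knockout stood at -0.34, and without E2-KO replicate 1 E2-KO stood at -0.0186. E3-KO stood at -0.34 without its replicate 2 and at -0.51 without WT replicate 2, and without WT replicate 2 all knockouts together stood at -0.22. None of the 17 tests between genotypes passed an unadjusted p of 0.05, and the smallest, for the distances below, was 0.0667.

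Libraries whose titles begin alike can be set side by side. Among the w326 libraries the numbers were 512 and 134 for E2-KO and 228 for E3-KO, against 222 in WT. Among the other libraries they were 79 and 64 for E1-KO, 107 for E3-KO, and 107 and 1901 for E1&E3-dKO, against 83 in WT. Within these sets the log2 difference from WT was -0.22 in E1-KO, 0.24 in E2-KO, 0.20 in E3-KO and 2.44 in E1&E3-dKO, with adjusted p of 0.850 or more.

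As a share of all listed interactions outside the 4 regions, those from 2 to 20 Mb made up 8.01% and 14.3% for E1-KO, 16.0% and 14.8% for E2-KO, 14.4% and 16.6% for E3-KO, 13.2% and 32.1% for E1&E3-dKO, and 18.7% and 19.4% for WT. The share lay below both WT libraries in 7 of the 8 knockout libraries and above both in the remaining one, E1&E3-dKO replicate 2. The mean difference between knockouts and WT, -2.91 percentage points, did not pass the test (exact permutation, two-sided, p = 0.489, adjusted p = 0.843). With an adjusted p limit of 0.001 in place of the deposited 0.01 it was 2.17 points.

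**Figure D1:**
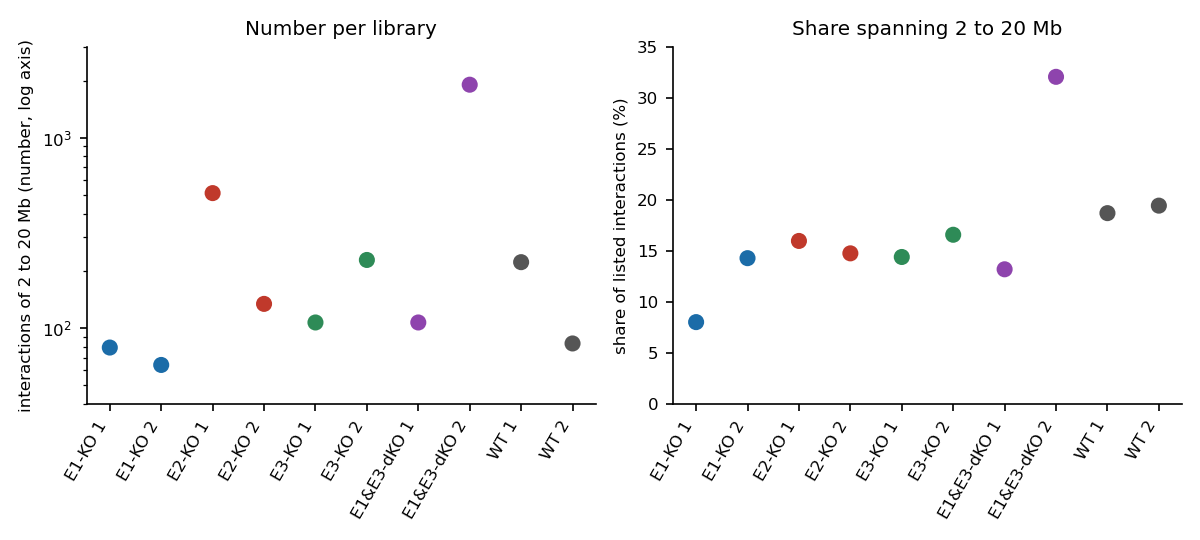
Number of interactions from 2 to 20 Mb per library (left, log axis) and their share of all listed interactions outside the 4 regions in percent (right); each point is one library, coloured by genotype, with the replicate number after its name. E1&E3-dKO replicate 2 stands highest in both panels, at 1901 interactions and 32.1%, and the other 7 knockout libraries lie below both WT libraries in the right panel.

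The median distance of the interactions was lower in every E1-KO and E2-KO library than in both WT libraries, but the test over all genotypes did not pass. It was 7.10 and 5.29 Mb for E1-KO, 7.22 and 5.09 Mb for E2-KO, 8.74 and 10.8 Mb for E3-KO, 10.95 and 11.9 Mb for E1&E3-dKO, and 10.8 and 11.4 Mb for WT. Of the other knockout libraries, E3-KO replicate 1 lay below both WT libraries, E3-KO replicate 2 and E1&E3-dKO replicate 1 between them, and E1&E3-dKO replicate 2 above both. Libraries of one genotype differed by 1.51 Mb on average (exact permutation over 945 pairings of the libraries, one-sided, p = 0.0667, adjusted p = 0.819), so the genotypes were not told apart beyond the spread within them. Within the w326 libraries the medians were 7.22 and 5.09 Mb for E2-KO and 10.8 Mb for E3-KO, against 10.8 Mb in WT, and within the others 7.10 and 5.29 Mb for E1-KO, 8.74 Mb for E3-KO, and 10.95 and 11.9 Mb for E1&E3-dKO, against 11.4 Mb in WT.

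The band from 2 to 5 Mb held 43.0% and 48.4% of these interactions in E1-KO, 31.8% and 49.3% for E2-KO, 24.3% and 22.4% for E3-KO, 21.5% and 9.63% for E1&E3-dKO, and 19.4% and 20.5% for WT. It was above both WT libraries in 7 of 8 knockout libraries and below both in E1&E3-dKO replicate 2. The band from 10 to 20 Mb held 32.9% and 29.7% for E1-KO, 34.8% and 22.4% for E2-KO, 45.8% and 52.2% for E3-KO, 54.2% and 60.5% for E1&E3-dKO, and 55.4% and 57.8% for WT. Distance bands follow from the distances above and were not tested again.

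**Figure D2:**
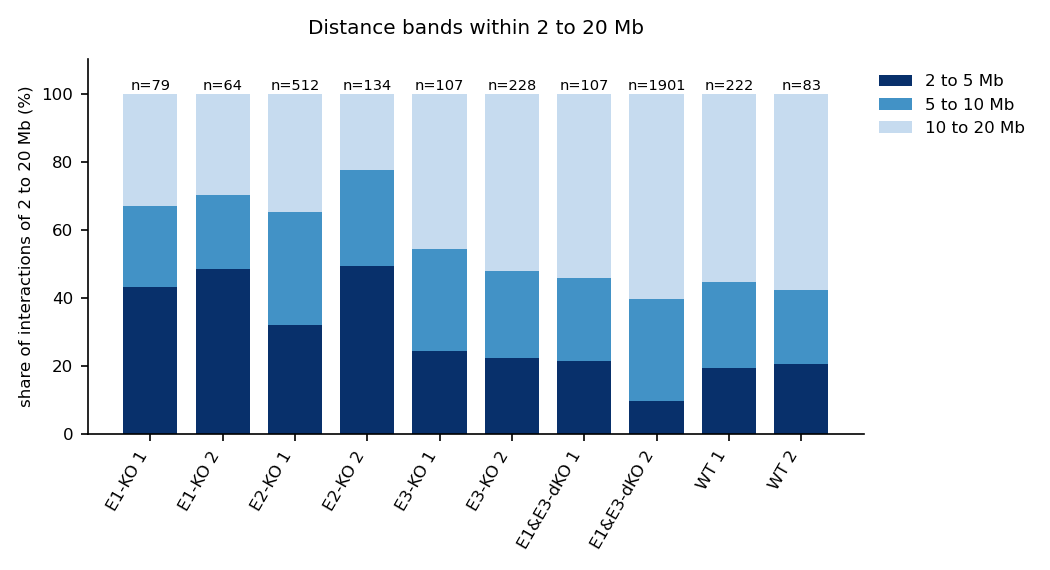
Share in percent of the interactions from 2 to 20 Mb that fall into 3 distance bands, one stacked bar per library with its number of interactions above it. The dark band from 2 to 5 Mb reaches between 31.8% and 49.3% in the E1-KO and E2-KO libraries, against 19.4% and 20.5% for WT.

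Most of these interactions rested on few reads. The median was 5 and 5 reads for E1-KO, 3 and 5 for E2-KO, 4 and 3 for E3-KO, 4 and 3 for E1&E3-dKO, and 4 and 4 for WT. Pairs with 3 or 4 reads made up 39.2% and 43.8% for E1-KO, 90.6% and 42.5% for E2-KO, 70.1% and 82.9% for E3-KO, 83.2% and 97.8% for E1&E3-dKO, and 68.0% and 74.7% for WT. At 10 reads or more there were 6 and 9 interactions in E1-KO, 9 and 16 for E2-KO, 5 and 9 for E3-KO, 2 and 4 for E1&E3-dKO, and 6 and 3 for WT. The knockouts and WT did not differ in median reads beyond the spread (log2 difference -0.0349, exact permutation, two-sided, p = 0.800, adjusted p = 0.907).

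The lists did not ask for the same number of reads in every library. An average pair of bins 10 Mb apart needed 5 and 4 reads for E1-KO, 3 and 4 for E2-KO, 4 and 4 for E3-KO, 4 and 3 for E1&E3-dKO, and 4 and 4 for WT to reach the largest p-value listed, if the deposited p-values are Poisson tails of the reads expected. From 2 to 20 Mb the E1-KO and WT libraries listed no pair with 3 reads, although their median at 20 Mb and more was 3 reads. Over the same 2 to 20 Mb, E2-KO replicate 1 listed 424 and E1&E3-dKO replicate 2 listed 1585 pairs with exactly 3 reads. The part of this difference in the numbers above was not tested. Under the same assumption, the median ratio of observed to expected reads was 207 and 313 for E1-KO, 1932 and 559 for E2-KO, 295 and 811 for E3-KO, 412 and 649 for E1&E3-dKO, and 254 and 242 for WT.

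The bias factor of a bin is the authors' ratio of its visibility to that of an average bin. Each interaction was given the mean factor of its 2 ends. The median of these means was 0.976 and 1.09 for E1-KO, 1.10 and 0.987 for E2-KO, 1.07 and 0.883 for E3-KO, 1.03 and 0.978 for E1&E3-dKO, and 1.02 and 1.05 for WT. Libraries of a genotype were no more alike in it than libraries paired otherwise (mean difference within a genotype 0.0982, exact permutation over pairings, one-sided, p = 1). Taken end by end, those on the X chromosome had a median factor between 0.571 and 0.733 in the 10 libraries, and those on autosomes one between 0.963 and 1.10. The ranges of the 2 did not overlap in these libraries.

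Chromosome 1 held more of the interactions than its length. Its mean share was 18.1% ± 6.73 (SD, n = 10 libraries), while it held 7.71% of the length, a ratio of 2.35. Length ran from the first to the last TAD of a chromosome over all libraries, with gaps included and the 4 regions left out. The next ratio was that of chromosome 10, at 1.45, and the lowest that of chromosome 12, at 0.521. By library, chromosome 1 held 20.3% and 31.2% for E1-KO, 9.57% and 22.4% for E2-KO, 18.7% and 15.4% for E3-KO, 14.02% and 9.42% for E1&E3-dKO, and 16.2% and 24.1% for WT. Without the single site from 84.965 to 87.535 Mb described below, the share of chromosome 1 was between 7.66% and 13.7%. Over 20 tests, 1 a chromosome, no share was more alike within genotypes than between them (exact permutation over pairings, one-sided, smallest p = 0.0540 on chromosome 2, smallest adjusted p = 0.908). The X chromosome held between 2 and 70 interactions a library, and chromosome 17 held 2.53% and 1.56% for E1-KO, 5.86% and 8.21% for E2-KO, 7.48% and 3.51% for E3-KO, 0.935% and 3.84% for E1&E3-dKO, and 0.901% and 1.20% for WT.

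Few of these interactions came back in a second library. Pairs whose ends both lay within 1 bin were counted as one, and they formed 3115 distinct interactions, of which 3026 (97.1%, exact binomial interval 96.5 to 97.7%, counting error only) were listed in 1 library. A further 89 were listed in 2 or more libraries, 25 in 5 or more, and 1 in all 10. E1&E3-dKO replicate 2 held 1871 (61.8%) and E2-KO replicate 1 held 440 (14.5%) of those listed once. Without E1&E3-dKO replicate 2 the share listed in 1 library was 93.3%, without E2-KO replicate 1 it was 97.4%, and without both it was 91.9%. Distinct interactions listed in 2 or more libraries had a median distance of 4.56 Mb, and those listed in 1 library 11.3 Mb. No distinct interaction of chromosomes 11 and 12 or of the X chromosome, of 152, 108 and 144, was listed in a second library. On chromosomes 2, 13, 15, 16 and 18 it was 1 each, of 230, 124, 119, 109 and 121, and on chromosome 1 it was 25 of 289. Over all chromosomes the share was 2.86%.

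The share of a library's interactions that another library also listed was 50.6% and 62.5% for E1-KO, 14.1% and 66.4% for E2-KO, 29.0% and 19.3% for E3-KO, 13.1% and 1.58% for E1&E3-dKO, and 13.96% and 24.1% for WT. The 2 E2-KO libraries lay far apart, and both E1-KO libraries lay above both WT libraries. Libraries of a genotype differed by 19.1 percentage points on average (exact permutation over pairings, one-sided, p = 0.219, adjusted p = 0.819), and the knockouts differed from WT by 13.04 points (exact permutation, two-sided, p = 0.556, adjusted p = 0.843).

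A setting with equal list lengths changed this comparison. When only the 427 interactions with the smallest p were kept in each library, which left between 36 and 109 interactions from 2 to 20 Mb, it was 72.2% and 58.1% for E1-KO, 83.3% and 85.1% for E2-KO, 35.1% and 50.7% for E3-KO, 15.1% and 15.6% for E1&E3-dKO, and 32.9% and 21.7% for WT. The ranges of the 5 genotypes did not overlap. The other library of the same genotype counted as another library, so a pair listed in both entered both of their shares. The 2 values of a genotype were therefore not independent, the permutation takes no account of this, and matches within and between genotypes were not separated. The mean difference within a genotype was then 8.64 points (exact permutation over 945 pairings, one-sided, p = 0.00106, the smallest they can give, adjusted p = 0.0180 over the 17 tests at that setting). It was the only one of 318 tests between genotypes under the alternatives to pass after adjustment, and 10 of the 318 passed an unadjusted p of 0.05. The median distance of the interactions kept was 4.12 and 5.29 Mb for E1-KO, 5.56 and 3.36 Mb for E2-KO, 8.81 and 7.62 Mb for E3-KO, 11.4 and 12.8 Mb for E1&E3-dKO, and 7.47 and 11.4 Mb for WT. The part of distance in the share was not tested.

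The 89 distinct interactions seen in 2 or more libraries fell into 48 sites when those whose ends lay within 500 kb of each other were joined. Of these, 16 were found in 5 or more libraries and 3 in all 10, 18 held a pair from WT, 30 were seen in knockouts alone and 0 in WT alone. There were 8 knockout libraries and 2 WT libraries, and these counts were not tested against that. No gene is assigned to a site, since the deposited positions are in mm9 and no mm9 annotation was used here. Positions below are bin centres in mm9.

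The site with most pairs lay on chromosome 1 and joined 84.965 to 85.345 Mb with 87.355 to 87.535 Mb, pairs 2.06 to 2.49 Mb apart. It held 18 distinct interactions and 119 listed pairs from 18 bins on the left and 13 on the right. Its reads summed to 80 and 169 for E1-KO, 65 and 201 for E2-KO, 104 and 169 for E3-KO, 37 and 75 for E1&E3-dKO, and 103 and 65 for WT. Every library listed it, and the 4 highest sums were those of E2-KO replicate 2, E1-KO replicate 2, E3-KO replicate 2 and E3-KO replicate 1. The sums add listed pairs only, from 5 in E1&E3-dKO replicate 1 to 21 in E2-KO replicate 2. The site made up between 0.473% of the interactions in E1&E3-dKO replicate 2 and 23.4% in E1-KO replicate 2. The median bias factor of its ends was between 1.04 and 1.41.

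The other sites found in all libraries were longer. On chromosome 1, 46.115 to 46.685 Mb met 53.405 to 53.795 Mb, with summed reads of 10 and 12 for E1-KO, 42 and 35 for E2-KO, 20 and 9 for E3-KO, 4 and 19 for E1&E3-dKO, and 16 and 4 for WT. On chromosome 5, 22.815 to 22.845 Mb met 28.275 to 28.295 Mb, with 8 and 13 reads for E1-KO, 37 and 35 for E2-KO, 8 and 11 for E3-KO, 7 and 10 for E1&E3-dKO, and 13 and 5 for WT. At both sites the 2 E2-KO libraries had the highest sums. The sums add listed pairs only, the reads needed for a listing differed between libraries, and the part of this was not tested. On chromosome 1 they held 7 and 5 pairs for E2-KO, against 2 and 1 for WT. E1-KO had 2 and 3 pairs there, E3-KO 4 and 2, and E1&E3-dKO 1 and 5. On chromosome 5 there were 3 and 4 pairs for E2-KO, 1 and 3 for E1-KO and 1 in each other library. On the same chromosome, 22.835 to 22.855 Mb met 31.695 to 31.745 Mb in 8 libraries, with between 3 and 12 reads where listed and none listed in E1&E3-dKO replicate 1 and WT replicate 2.

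**Figure D3:**
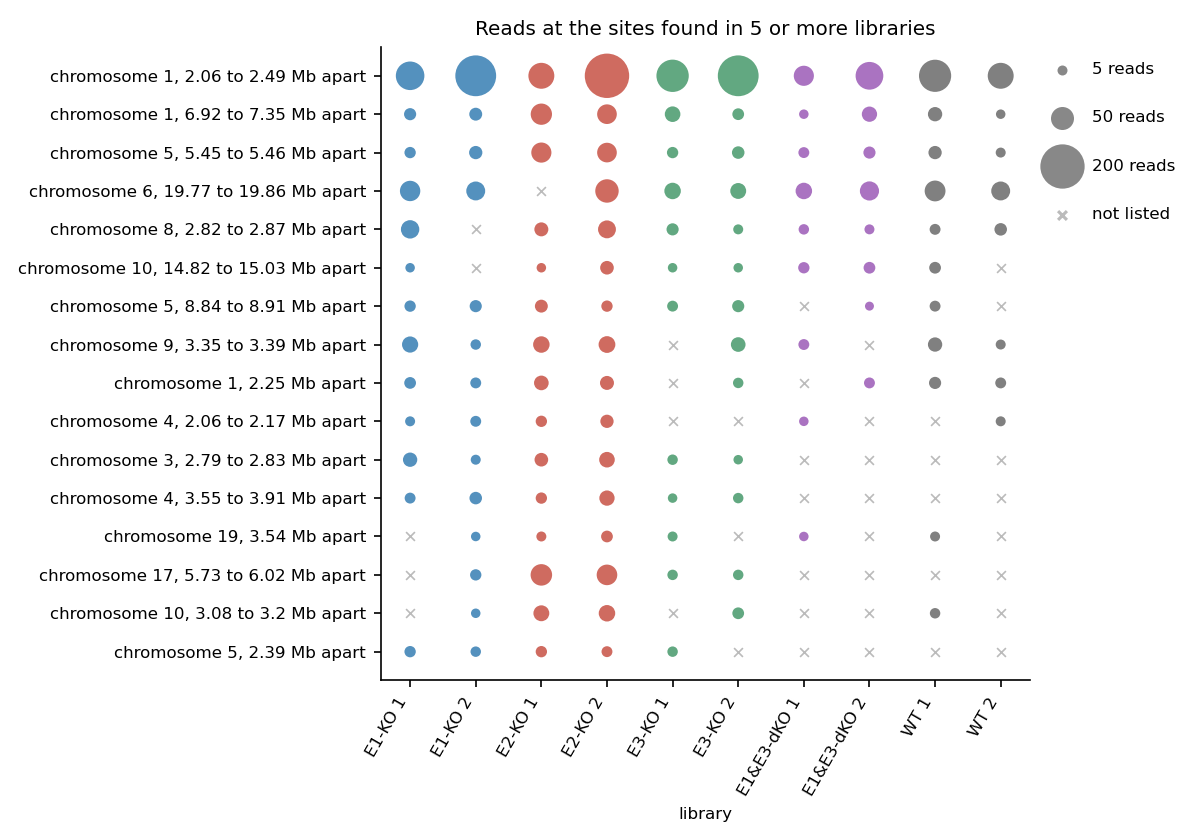
Summed reads of listed pairs at the 16 sites found in 5 or more libraries (rows, named by chromosome and distance between the ends) in each library (columns); the area of a point grows with its reads, colour gives the genotype and a cross marks a site that was not listed. The first 3 rows are filled in all 10 libraries, and the rows of chromosome 3 (2.79 to 2.83 Mb), chromosome 4 (3.55 to 3.91 Mb), chromosome 17 and chromosome 5 (2.39 Mb) have points in E1-KO, E2-KO or E3-KO libraries and crosses in all E1&E3-dKO and WT libraries.

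By single interactions, the one listed in all 10 libraries joined 85.185 and 87.535 Mb on chromosome 1, within the site with most pairs. It had 7 and 11 reads for E1-KO, 16 and 12 for E2-KO, 10 and 11 for E3-KO, 6 and 9 for E1&E3-dKO, and 10 and 5 for WT, which was 63.9 to 2077 times the expected count. The interaction with the most reads joined 84.985 and 87.475 Mb on the same chromosome, with 19 and 45 reads for E1-KO, 18 in E2-KO replicate 2, 23 and 31 for E3-KO, 14 and 23 for E1&E3-dKO, and 24 and 16 for WT. E2-KO replicate 1 did not list it, although 4 reads would have been enough there at the bias factors its bins had elsewhere, 1.05 to 1.91. The factors of these bins in E2-KO replicate 1 were not used here. No listed bin had a factor above 2.00, and whether a bin was left out there for its factor was not tested.

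The longest of the 8 interactions found in most libraries spanned 19.78 Mb on chromosome 6, from 116.495 to 136.275 Mb. It had 22 and 18 reads for E1-KO, 26 in E2-KO replicate 2, 18 and 11 for E3-KO, 23 and 24 for E1&E3-dKO, and 27 and 26 for WT, 522 to 2150 times the expected count. Its bias factors lay between 1.14 and 1.88. It was not listed in E2-KO replicate 1, where 3 reads would have been enough at the bias factors its bins had elsewhere. Whether a bin was left out of that library for its factor was not tested. Its highest counts were those of WT and of E2-KO replicate 2.

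Other recurrent interactions were missing from 1 or 2 libraries each. The pair at 22.815 and 28.275 Mb on chromosome 5 had 8 reads in E1-KO replicate 1, 23 and 15 for E2-KO, 8 and 11 for E3-KO, 7 and 10 for E1&E3-dKO, and 13 and 5 for WT, and was not listed in E1-KO replicate 2. The pair at 173.645 and 175.895 Mb on chromosome 1 had 9 and 7 reads for E1-KO, 17 and 15 for E2-KO, 6 in E3-KO replicate 2, 7 in E1&E3-dKO replicate 2, and 10 and 7 for WT. The pair at 55.855 and 59.215 Mb on chromosome 9 had 9 and 6 reads for E1-KO, 12 and 8 for E2-KO, 8 in E3-KO replicate 2, 7 in E1&E3-dKO replicate 1, and 9 and 5 for WT. A library that did not list a pair may still hold reads there below the number needed, between 3 and 6 for these pairs, and such reads are not in the lists.

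For each genotype, the interactions found in both of its libraries and in the fewest others were these. The E1-KO pair at 19.105 and 23.065 Mb on chromosome 8 had 6 and 5 reads there and 4 in E3-KO replicate 2. The E1&E3-dKO pair at 7.105 and 22.105 Mb on chromosome 10, 15.0 Mb apart, had 4 and 5 reads there and 5 in E2-KO replicate 2, against 4 in WT replicate 1. The WT pair at 28.455 and 31.295 Mb on chromosome 8 had 10 reads in replicate 1 of E1-KO, 5 and 12 for E2-KO, 10 in E3-KO replicate 1 and 6 in E1&E3-dKO replicate 1, against 7 and 11 in WT. The remaining ones lay at the chromosome 1 site with most pairs or are given with the recurrent, lost and gained interactions.

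Of 13 sites found in at least 5 libraries and holding more than 1 pair of bins, 5 had SDs of the sum of both positions and of their distance that differed by over 2 times. On chromosome 8 (28.445 to 31.315 Mb, 9 libraries) the sum of both positions had an SD of 7.07 kb over 5 pairs of bins and their distance one of 20.7 kb, so one end moved left as the other moved right. The same held on chromosome 9 (55.835 to 59.225 Mb, 8 libraries; 5.77 and 20.8 kb over 3 pairs), on chromosome 3 (28.765 to 31.595 Mb, 6 libraries; 10 and 20.8 kb over 3 pairs), and on chromosome 5 for the site from 22.835 Mb (14.1 and 31.6 kb over 4 pairs). The neighbouring chromosome 5 site from 22.815 to 28.295 Mb ran the other way, with an SD of 31.1 kb for the sum and 5.48 kb for the distance over 5 pairs. At the other 8 sites both SDs were between 35.9 and 255 kb. The 5 sites were singled out after their values were seen, and no test was made.

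A bin could serve more than 1 interaction. The share of interactions with such a bin was 17.7% and 29.7% for E1-KO, 8.01% and 36.6% for E2-KO, 12.1% and 9.65% for E3-KO, 5.61% and 4.79% for E1&E3-dKO, and 8.56% and 12.05% for WT. Both E1-KO libraries lay above and both E1&E3-dKO libraries below both WT libraries, and libraries of a genotype differed by 9.47 points on average (exact permutation over pairings, one-sided, p = 0.164, adjusted p = 0.819). In each library 3 to 47 bins were used more than once, none more than 3 times. Of these bins, 13 of 30 in E2-KO replicate 2, 13 of 15 in E3-KO replicate 2 and 5 of 6 in WT replicate 2 lay at the chromosome 1 site from 84.965 to 87.535 Mb. It was 2 of 8 in E1-KO replicate 1, 4 of 25 in E2-KO replicate 1 and 2 of 47 in E1&E3-dKO replicate 2. A single bin was used most only in E1-KO replicate 2 and WT replicate 1, at 87.475 Mb within that site. In the other libraries 2 to 47 bins were tied. With 1 bin taken from each tie, the most used bin lay at that site in 8 libraries. It lay at 53.605 Mb on chromosome 1 in E1&E3-dKO replicate 2, 1 of 47 tied. In E2-KO replicate 1 it lay at 82.085 Mb on chromosome 10, 1 of 2 tied. The count of 8 libraries depends on which tied bin was taken. In E1-KO replicate 1, where the bin taken lay at the site, 8 bins were tied and 2 of them lay there. Counted only among interactions also listed elsewhere, 30.0% to 55.1% shared a bin with another of them. Counted only among those listed in 1 library, 0% to 5.13% did. A bin that joined an interaction of one set to an interaction of the other was not counted in these shares.

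An interaction was called lost in a knockout when both WT libraries and neither library of the knockout listed it, and gained in the reverse case. E2-KO gained 32 of 823 distinct interactions from 2 to 20 Mb (3.89%), beside 4.99% of the distinct interactions of all distances, and lost 0, beside 0.0629%. E1-KO gained 5 of 377 (1.33%), beside 1.21%, and lost 0, beside 0.0808%. E3-KO gained 4 of 571 (0.701%), beside 0.605%, and lost 0, beside 0.0605%. E1&E3-dKO gained 0 of 2262, beside 0.187%, and lost 2 (0.0884%), beside 0.0748%. These shares lay near those of all distances. The 4 comparisons share the WT libraries. No interaction was listed in all 8 knockout libraries and in neither WT library, and none in both WT libraries and no knockout library, while 11 were listed in both WT libraries.

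Leaving out a library of the knockout itself changed its number of gains by more than 1.5 times, and leaving out a WT library did so for the losses, as did, less, leaving out a library of the knockout. Gains in E2-KO were 89 without its replicate 1 and 479 without its replicate 2. Without replicate 1 and without replicate 2 of the knockout itself, E1-KO had 40 and 55 gains, E3-KO 201 and 87, and E1&E3-dKO 1880 and 95. Losses without WT replicate 1 were 68 in E1-KO, 66 in E2-KO, 68 in E3-KO and 68 in E1&E3-dKO, and without WT replicate 2 they were 196, 193, 197 and 201 in the same order. Without replicate 1 and without replicate 2 of the knockout itself, losses were 2 and 1 for E1-KO, 0 and 5 for E2-KO, 1 and 3 for E3-KO, and 4 and 5 for E1&E3-dKO, so those of E2-KO did not change without its replicate 1. Gains moved less when a WT library was left out: without WT replicate 1 and without WT replicate 2 they numbered 7 and 5 for E1-KO, 40 and 36 for E2-KO, 7 and 4 for E3-KO, and 1 and 0 for E1&E3-dKO.

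The gains of E2-KO had a median distance of 5.28 Mb, and 15 of the 32 were shorter than 5 Mb. On chromosome 17 there were 7, and on chromosomes 7 and 5 there were 4 each. Of the 32, 13 were listed in no library of another genotype, and 6 lay at sites where a WT library listed a neighbouring pair. The chromosome 17 site, 7.545 to 7.615 Mb with 13.295 to 13.595 Mb, had summed reads of 8 in E1-KO replicate 2, 43 and 39 for E2-KO, and 6 and 6 for E3-KO, and was not listed in E1-KO replicate 1, E1&E3-dKO or WT. These sums came from 7 and 7 listed pairs for E2-KO and from 1 pair in each other library that listed the site. The site's pair at 7.585 and 13.325 Mb was listed with 5 and 7 reads for E2-KO and in no other library. At the bias factors its bins had in E2-KO, 3 or 4 reads would have been enough in the other libraries, whose own factors for these bins were not used here. The pair at 20.565 and 24.855 Mb on chromosome 7 was listed with 7 and 6 reads for E2-KO and in no other library.

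The gains named for E1-KO and E3-KO were each listed in E2-KO libraries too. The pair at 5.795 and 8.185 Mb on chromosome 5 had 8 and 6 reads for E1-KO, 8 and 7 for E2-KO and 6 in E3-KO replicate 1, and was listed in neither E1&E3-dKO nor WT. The pair at 28.795 and 31.585 Mb on chromosome 3 had 10 and 5 reads for E1-KO, 7 and 9 for E2-KO and 6 and 4 for E3-KO, and was likewise listed in neither E1&E3-dKO nor WT. The pair at 6.035 and 24.125 Mb on chromosome 7 had 5 and 5 reads for E1-KO and 5 in E2-KO replicate 1, and no other library listed it. The pair at 85.195 and 87.425 Mb on chromosome 1 had 8 reads in E1-KO replicate 2, 11 in E2-KO replicate 2 and 6 and 10 in E3-KO. It lay within the site with most pairs, which every library listed. Both pairs lost in E1&E3-dKO lay at the chromosome 1 site from 84.965 to 87.535 Mb, which both E1&E3-dKO libraries listed through other pairs. The one at 84.965 and 87.445 Mb had no listing in E1&E3-dKO, against 9 and 5 reads for WT, and the one at 85.345 and 87.535 Mb had none in E1&E3-dKO, against 8 and 6 reads for WT.

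The strongest pair of a single library, singled out after its values were seen, lay on the X chromosome at 120.325 and 122.525 Mb in E2-KO replicate 2. It had 22 reads and a deposited p-value of 8.22e-58, with bias factors of 1.83 and 0.503. The next pairs by reads among those of 1 library had 9, 8, 7 and 7 reads.

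Ends of these interactions lay at TAD boundaries about as often as other bins did. Within 25 kb of a boundary of the same library lay 10.8% and 21.9% of the ends in E1-KO, 35.9% and 23.5% for E2-KO, 11.2% and 22.8% for E3-KO, 13.6% and 20.6% for E1&E3-dKO, and 9.46% and 16.9% for WT. The same share of all bins was 11.3% and 15.4% for E1-KO, 34.8% and 17.9% for E2-KO, 13.5% and 20.7% for E3-KO, 14.03% and 21.3% for E1&E3-dKO, and 11.9% and 14.6% for WT. The ends exceeded all bins in 5 libraries and fell short of them in 5, by -2.40 to 6.52 points. The authors listed 2715 and 3648 TADs in E1-KO, 7962 and 4215 for E2-KO, 3300 and 4859 for E3-KO, 3346 and 4871 for E1&E3-dKO, and 2878 and 3548 for WT. Both the share of ends and that of all bins were highest in E2-KO replicate 1, which had the most TADs.

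The knockouts exceeded WT by 6.87 points in the share of ends at boundaries (exact permutation, two-sided, p = 0.289, adjusted p = 0.819). With the share of all bins taken off, the difference was 1.51 points, and with the boundaries held by both WT libraries used for every library it was 0.433 points. Libraries of a genotype differed by 9.92 points on average (exact permutation over pairings, one-sided, p = 0.644, adjusted p = 0.843).

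**Figure D4:**
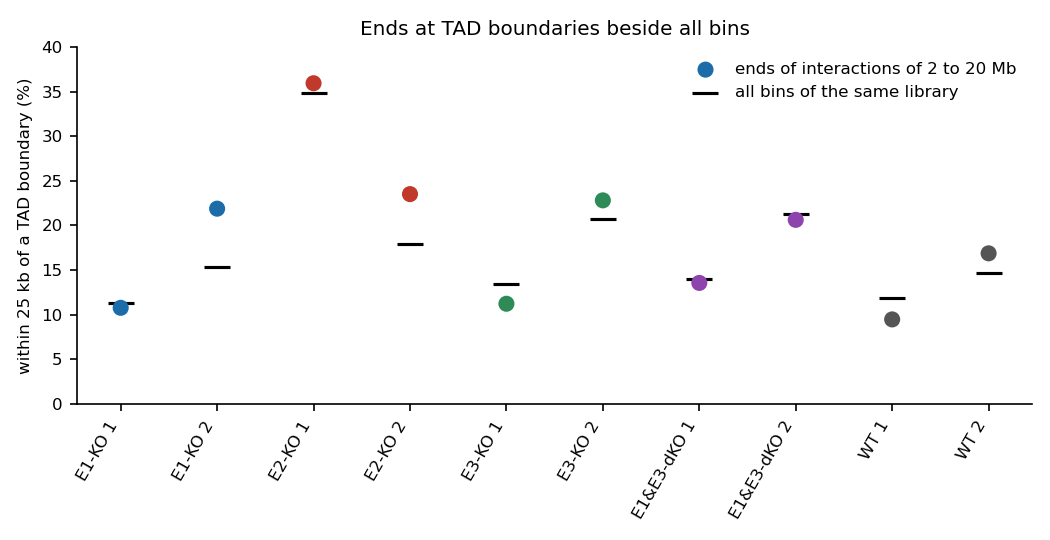
Share in percent of the ends of interactions from 2 to 20 Mb that lie within 25 kb of a TAD boundary of the same library (points, coloured by genotype) and the same share of all bins of that library (black dashes). Points and dashes move together, and points lie above their dash in 5 libraries and below it in 5.

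Set beside the other distances of the same libraries, interactions from 2 to 20 Mb stood between the shorter and the longer ones in reads and recurrence. Their median reads averaged 4.00 ± 0.816 over libraries (SD, n = 10), against 11.9 ± 3.11 under 2 Mb and 2.90 ± 0.316 at 20 Mb and more. The log2 difference was -1.56 from the shorter ones (lower in 10 of 10 libraries; exact sign-flip permutation over libraries, two-sided, adjusted p = 0.00651 over 10 tests) and 0.45 from the longer ones (higher in 8, equal in the other 2; adjusted p = 0.0130). The reads that an average pair needed also fell with distance, being 3 to 6 at 2 Mb and 3 to 4 at 20 Mb. They were not computed under 2 Mb. A pair was listed only if it reached the number for its own distance, so this test cannot separate the difference from the listing. The part of the listing in this difference was not tested.

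The share found in another library averaged 29.5% ± 22.5 for interactions from 2 to 20 Mb, against 71.7% ± 19.0 under 2 Mb and 7.86% ± 7.29 at 20 Mb and more (SD, n = 10). It was lower than under 2 Mb in 9 of 10 libraries, E1-KO replicate 1 being the exception with 50.6% against 38.3% (mean difference -42.2 points, exact sign-flip permutation, adjusted p = 0.00781). It was higher than at 20 Mb and more in 10 of 10 (21.6 points, exact sign-flip permutation, adjusted p = 0.00651). A pair shared by libraries counted in each of them, so the 10 differences were not independent, and the sign flips take no account of this. The part of the listing, which also differed with distance, was not tested. With the 427 best interactions of each library the difference from the shorter ones was -29.7 points and no longer passed (exact sign-flip permutation, adjusted p = 0.0586). Of distinct interactions, 97.1% were listed in 1 library from 2 to 20 Mb, against 72.4% under 2 Mb and 99.2% at 20 Mb and more.

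The share with a bin used more than once averaged 14.5% ± 10.6 for interactions from 2 to 20 Mb, against 34.1% ± 13.9 under 2 Mb and 6.57% ± 4.50 at 20 Mb and more (SD, n = 10). It was lower than under 2 Mb in 10 of 10 libraries (-19.6 points, exact sign-flip permutation, adjusted p = 0.00651) and higher than at 20 Mb and more in 9 of 10, E1&E3-dKO replicate 2 being the exception (7.91 points, adjusted p = 0.0140). The first call did not hold with an adjusted p limit of 0.001 (-8.90 points, exact permutation, adjusted p = 0.0558) or with the 4 regions kept (-4.67 points, adjusted p = 0.398). The second did not hold with the 427 best interactions (6.39 points, exact permutation, adjusted p = 0.179) or with neighbouring pairs merged (4.64 points, adjusted p = 0.0921).

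At TAD boundaries lay 18.7% ± 8.06 of the ends from 2 to 20 Mb, against 40.4% ± 8.77 under 2 Mb and 17.2% ± 7.64 at 20 Mb and more (SD, n = 10). The share was lower than under 2 Mb in 9 of 10 libraries, E2-KO replicate 1 being the exception with 35.9% against 33.1% (-21.7 points, exact sign-flip permutation, adjusted p = 0.00781). From 20 Mb and more it differed by 1.45 points, which did not pass (exact permutation, adjusted p = 0.186). With the 4 regions kept this difference was -1.89 points and passed (exact permutation, adjusted p = 0.0419). The median bias factor differed by -0.0171 from that of shorter and by 0.0111 from that of longer interactions, and neither difference passed (exact sign-flip permutation, adjusted p = 0.590 and 0.652).

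**Figure D5:**
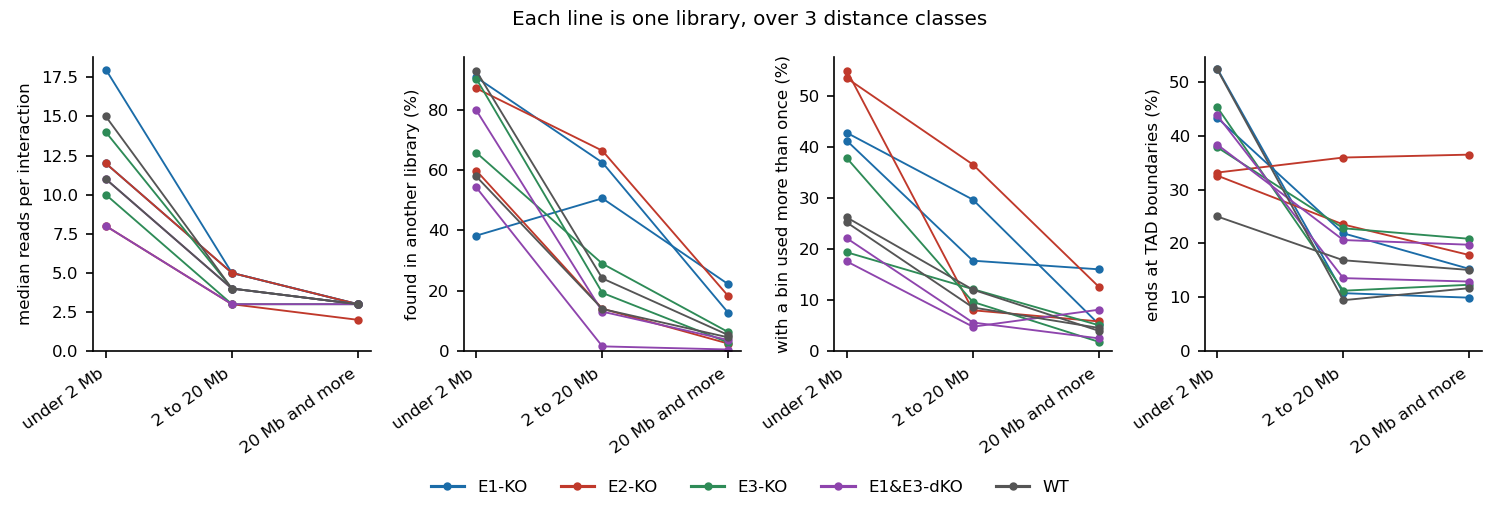
Median reads, share found in another library, share with a bin used more than once and share of ends at TAD boundaries (the last 3 in percent) in 3 distance classes; each line is one library, coloured by genotype. From under 2 Mb to the class from 2 to 20 Mb, reads and the share with a bin used more than once fall in 10 of 10 libraries, and the share found in another library and that of ends at boundaries fall in 9 of 10.

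Pairs of 1 distinct interaction lay on both sides of the 2 Mb limit. On chromosome 4 the pair at 145.175 and 147.175 Mb, 2.00 Mb apart, was just inside in E3-KO replicates 1 and 2 and E1&E3-dKO replicate 2, with 6, 7 and 5 reads. The pair at 145.185 and 147.175 Mb, 1.99 Mb apart, was just outside in E1-KO replicate 2 and E2-KO replicate 2, with 7 and 10 reads, and both belong to 1 distinct interaction found in 9 libraries. The third pair just outside was on chromosome 5 at 14.985 and 16.975 Mb, with 8 reads in E3-KO replicate 2 alone. At 20 Mb, the 3 pairs nearest to the limit on each side had 3 or 4 reads and were each listed in 1 library.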

How the data were processed

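Exo-Hi-C was deposited for 10 libraries as 20 files, an interaction list and a TAD list each. Per the submitters' processing notes, the tools were HiC-Pro 2.10.0 and HOMER (no version named) and the build mm9; which tool made the interaction list is not given in the sources used here. The deposited lists hold pairs of 10 kb bins with raw counts of reads, their p-value, its adjusted form (never above 0.01), and a bias factor per bin, a ratio to an average bin between 0.500 and 2.00 in the deposited files. The TAD lists hold positions and a score from the authors, at least 1.5. Replicates were not pooled. All remaining values were computed with Python 3.11.15, numpy 2.4.6, pandas 2.3.3, SciPy 1.17.1 and matplotlib 3.10.9.

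Pairs from 2 to 20 Mb with no end in the 4 regions were kept, each once. Both ends within 1 bin counted as shared, and a bin centre within 25 kb of a TAD end as at a boundary. Expected counts came from solving the Poisson tail for the deposited p-value and dividing by both bias factors. This assumes that the deposited p-values are Poisson tails; only the solving was tested, on simulated data. Genotypes were compared by exact permutation over 945 pairings, 45 choices (knockouts against WT) or 1260 choices (a knockout against WT, all 10 libraries exchangeable, since 2 libraries against 2 alone cannot go below p = 0.333); their smallest p-values are 0.00106, 0.0222 and 0.000794. Distance classes were compared by exact sign flips over libraries (smallest p 0.00195). Benjamini-Hochberg adjustment ran over 17, 20 and 10 tests. Named interactions were the 8 found in most libraries, for each genotype 2 found in both of its libraries and fewest others, up to 2 lost and 2 gained per knockout, the bin used most in each library and the 3 pairs nearest each distance limit. The members and lists were chosen with earlier results of these data known. Replicate numbers come from the labels and only name libraries.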

Additional observations from a re-analysis of the deposited data

Results flagged for a closer look

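Genotypes that lay on opposite sides of the WT mean in all their libraries were noted for 6 of 16 summary measures; groups of 2 libraries are too small to look for outlying samples. In the share of interactions with a bin used more than once, the E1-KO libraries lay 7.42 and 19.4 points above the WT mean and the E1&E3-dKO libraries differed from it by -4.70 and -5.52 points, a gap of 18.5 points between the means of these knockouts. In the share found in another library, the E1-KO libraries lay 31.6 and 43.5 points above and the E1&E3-dKO libraries differed by -5.95 and -17.5 points, a gap of 49.2 points. In the same share the E3-KO libraries lay 9.94 and 0.268 points above, a gap of 16.8 points to E1&E3-dKO. In the share with 3 or 4 reads, the E1&E3-dKO libraries lay 11.8 and 26.4 points above and the E1-KO libraries differed by -32.1 and -27.6 points, a gap of 49.0 points.

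In the number with 10 reads or more, the E1&E3-dKO libraries differed from the WT mean by -2.5 and -0.5 interactions, whereas both libraries of each single knockout lay above it. The gap to E1&E3-dKO was 4.5 interactions for E1-KO, 9.5 for E2-KO and 4 for E3-KO. In the share of ends at TAD boundaries less that of all bins, the E2-KO libraries lay 1.17 and 5.69 points above the WT mean and the E1&E3-dKO libraries differed by -0.398 and -0.562 points, a gap of 3.91 points. In the share on chromosome 1, the E1-KO libraries lay 0.0969 and 11.1 points above, the E3-KO libraries differed by -1.46 and -4.81 points and the E1&E3-dKO libraries by -6.14 and -10.7 points. The gaps to E1-KO were 8.73 points for E3-KO and 14.03 points for E1&E3-dKO. None of these 10 differences between knockouts was tested.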

How the results depend on the processing

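Of 550 values recomputed under alternatives, 496 counted as the same, 27 as moved, 21 as reversed, 5 as weaker and 1 as stronger. For a test, the same means an equal direction and side of the threshold. For lost and gained counts it means a change of at most 1.5 times. For the share listed in 1 library it means a value within the exact binomial interval, and for chromosomes an equal number of calls. The moved values all came from leaving out libraries. Settings that turned a direction or changed a call were these. With an adjusted p of at most 0.001, the share spanning 2 to 20 Mb differed between knockouts and WT by 2.17 points, the share found in another library by -1.55 points and the number in E1-KO by 0.31 (log2), and from 2 to 20 Mb the bias factor differed from that under 2 Mb by 0.00493, reused bins by -8.90 points and boundary ends from those at 20 Mb and more by -0.231 points. With the 4 regions kept, median reads differed between knockouts and WT by 0.12 (log2), reused bins from those under 2 Mb by -4.67 points and boundary ends from those at 20 Mb and more by -1.89 points. On autosomes only, median reads differed by 0.0170 (log2). With the 427 best interactions, the spread within genotypes of the share found in another library was 8.64 points and passed, the number differed from WT by -0.29 in all knockouts, -0.55 in E2-KO and -0.10 in E3-KO (log2), median reads by 0.22 (log2), the bias factor from that under 2 Mb by 0.00805, the share found in another library from that under 2 Mb by -29.7 points and reused bins from those at 20 Mb and more by 6.39 points. With neighbouring pairs merged the last was 4.64 points. The cause of these changes was not tested.

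Leaving out 1 library at a time, median reads between knockouts and WT ranged from -0.0859 to 0.0194 (log2). The number against WT ranged from -0.34 to 3.81 in E1&E3-dKO, -0.0186 to 1.92 in E2-KO, -0.51 to 0.91 in E3-KO, -1.64 to -0.22 in E1-KO and -0.22 to 1.20 in all knockouts (log2). Gains ranged from 5 to 55 in E1-KO, 36 to 479 in E2-KO, 4 to 201 in E3-KO and 0 to 1880 in E1&E3-dKO. Losses ranged from 1 to 196 in E1-KO, 0 to 193 in E2-KO, 1 to 197 in E3-KO and 4 to 201 in E1&E3-dKO. A call then rests on 1 library of that genotype. The share of distinct interactions listed in 1 library was 91.9% to 97.4% in alternatives chosen after seeing the data, as was leaving out only pairs with both ends in a region.

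The replicate block changed no call: the number differed between knockouts and WT by 0.49 (log2, exact permutation, p = 0.760), and the median distance by 1.52 Mb within genotypes (p = 0.0667). The numbers only name libraries, so the block has no basis in the design. Blocking by title changed no call either. Pairs of 3 or 4 reads made up 39.2% to 97.8% of a library's interactions, a pair that is not listed may hold reads below the number needed, and 2 libraries a genotype limit the precision.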

Other observations

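Sites below 5 libraries showed further positions in mm9. On chromosome 14, 45.135 to 45.325 Mb met 52.245 to 52.305 Mb, with 13 and 5 summed reads in E2-KO, 6 in E3-KO replicate 2 and 3 in E1&E3-dKO replicate 2. On chromosome 16, 31.005 Mb met 36.585 Mb, with 5 reads in E1-KO replicate 1, 6 in E3-KO replicate 1 and 8 in E1&E3-dKO replicate 2, against 6 in WT replicate 1. A site on chromosome 7 joined 6.945 Mb, which is just outside the region left out from 7 to 11 Mb, with 11.765 to 12.055 Mb on its other side. It was listed in E1-KO replicate 1, both E2-KO libraries and E1&E3-dKO replicate 2, with 4, 5, 8 and 3 reads.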
